A study of Mus musculus with 11 samples.

Results

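The genes described here are 10 genes of the Notch pathway and of early T-cell development: Notch1, Hes1, Dtx1, Gata3, Tcf7, Bcl11b, Il2ra, Cd3e, Ptcra and Cd7. Each was read from its probe set that carries exactly 1 gene symbol and has the highest mean over all arrays. This gave 9 genes of the 22180 that could be read in this way. Tcf7 had no such probe set and was not analysed here. The study hybridised 11 Affymetrix Mouse Gene 2.0 ST arrays with RNA of CLPs (common lymphoid progenitors), marrow cells from which lymphocytes arise. C57BL/6 mice were treated every other day with PBS or with CpG1826 at 50 µg, and marrow was taken on day 10. CpG1826 is an oligonucleotide that activates Toll-like receptor 9. CLPs were sorted by the surface protein Ly-6D straight into lysis buffer, and all groups share this sort. The arrays cover Ly-6D+ CLPs after CpG (3 arrays), Ly-6D+ CLPs after PBS (2 arrays), Ly-6D- CLPs after CpG (3 arrays) and Ly-6D- CLPs after PBS (3 arrays). The labels give no age and no pooling of animals, and they do not say whether arrays of a group are separate animals, so p-values measure only the spread between arrays.

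Notch receptors are cut when a ligand on a neighbouring cell binds them, and the freed intracellular part enters the nucleus. There it joins Rbpj and a Mastermind coactivator and switches on target genes such as Hes1 and Dtx1. In the thymus Notch1 signalling starts the T-cell programme, in which Tcf7, Gata3 and later Bcl11b are the transcription factors, and Il2ra, Ptcra and the Cd3 genes follow. In bone marrow, Ly-6D marks CLPs that are biased towards the B lineage, while Ly-6D- CLPs keep broader lymphoid potential.

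Promoters of 8 of the 10 genes were present in the RefSeq table for GRCm38.p6, and Hes1 and Cd7 were not. The 250 bases before each start site were searched on both strands for TGGGAA, the core of the motif bound by Rbpj. The core occurred at least once in 21.6% and at least 2 times in 2.77% of 32851 promoters of that length. The promoters of 1 chromosome, on which none of the 8 genes lie, were left out of the search. Ptcra held it 2 times, starting 84 and 32 bases before the start site, Cd3e held it 1 time, 123 bases before it, and the 7 promoters of the 6 other genes, 2 of them of Tcf7, did not hold these letters. Ptcra, which encodes the pre-T-cell receptor alpha chain and is a textbook Notch target, is printed because it held the most matches, and Notch1 because it encodes the receptor itself. Both genes lie on the minus strand, the sequences run 5′ to 3′ along that strand, and capitals mark the core.
Ptcra promoter, chr17:46763713-46763962: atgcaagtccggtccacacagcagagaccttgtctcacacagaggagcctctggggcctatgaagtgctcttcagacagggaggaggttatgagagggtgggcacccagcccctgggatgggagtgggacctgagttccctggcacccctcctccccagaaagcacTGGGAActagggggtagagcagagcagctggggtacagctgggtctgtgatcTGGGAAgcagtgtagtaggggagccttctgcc
Notch1 promoter, chr2:26503823-26504072: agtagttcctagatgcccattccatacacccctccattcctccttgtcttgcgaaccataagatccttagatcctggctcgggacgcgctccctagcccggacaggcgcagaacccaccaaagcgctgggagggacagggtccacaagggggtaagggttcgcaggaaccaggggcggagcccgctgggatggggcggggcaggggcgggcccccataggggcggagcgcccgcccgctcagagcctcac
A match is a stretch of letters, and binding was not measured.

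Values are log2 levels made by the authors with robust multi-array averaging (RMA), so a difference of 1 is 2-fold. Levels of different genes are not comparable with each other, because each probe set has its own response. The medians of the arrays lay between 3.85 and 3.96, and the number of arrays limits the precision. No detection values were used, so for dim probe sets it cannot be told whether the gene was expressed. Among the 9 genes this holds for Il2ra (2.86 to 3.86 over all arrays), Cd3e (2.84 to 3.85) and Ptcra (2.86 to 4.14). Ly6d, the gene of the sorted protein, was 12.55 to 12.61 in Ly-6D+ CLPs after CpG, 12.56 to 12.59 in Ly-6D+ CLPs after PBS, 7.47 to 8.08 in Ly-6D- CLPs after CpG and 8.03 to 8.50 in Ly-6D- CLPs after PBS, which is the order the sort gives. The CLP gene Il7r, the interleukin-7 receptor alpha chain, was 10.58 to 10.85 in Ly-6D+ CLPs after CpG, 10.71 to 10.76 in Ly-6D+ CLPs after PBS, 9.05 to 9.53 in Ly-6D- CLPs after CpG and 10.03 to 10.08 in Ly-6D- CLPs after PBS. Flt3, a cytokine receptor gene of early lymphoid progenitors, was 10.36 to 10.72 in Ly-6D- CLPs after CpG and 10.67 to 10.87 in the 3 other groups.

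Cd7 and Hes1 had the widest ranges of group means among the 9 genes, 2.58 and 1.77 log2 units. The span was 0.64 for Cd3e, 0.58 for Gata3, 0.57 for Notch1 and 0.57 for Il2ra. Ptcra (0.33), Dtx1 (0.22) and Bcl11b (0.21) lay closer to the median span over all genes, 0.26, and 15.1% of all genes spanned more than 0.5. Cd7 and Hes1 were higher in Ly-6D+ than in Ly-6D- CLPs after both treatments, Cd7 was higher after CpG in Ly-6D- CLPs, and Gata3 was lower in Ly-6D+ than in Ly-6D- CLPs after PBS. All tests were fitted with limma on 11 arrays, and genes with a p below 0.05 after Benjamini-Hochberg adjustment over 22180 genes were taken as past the test.

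**Figure D1:**
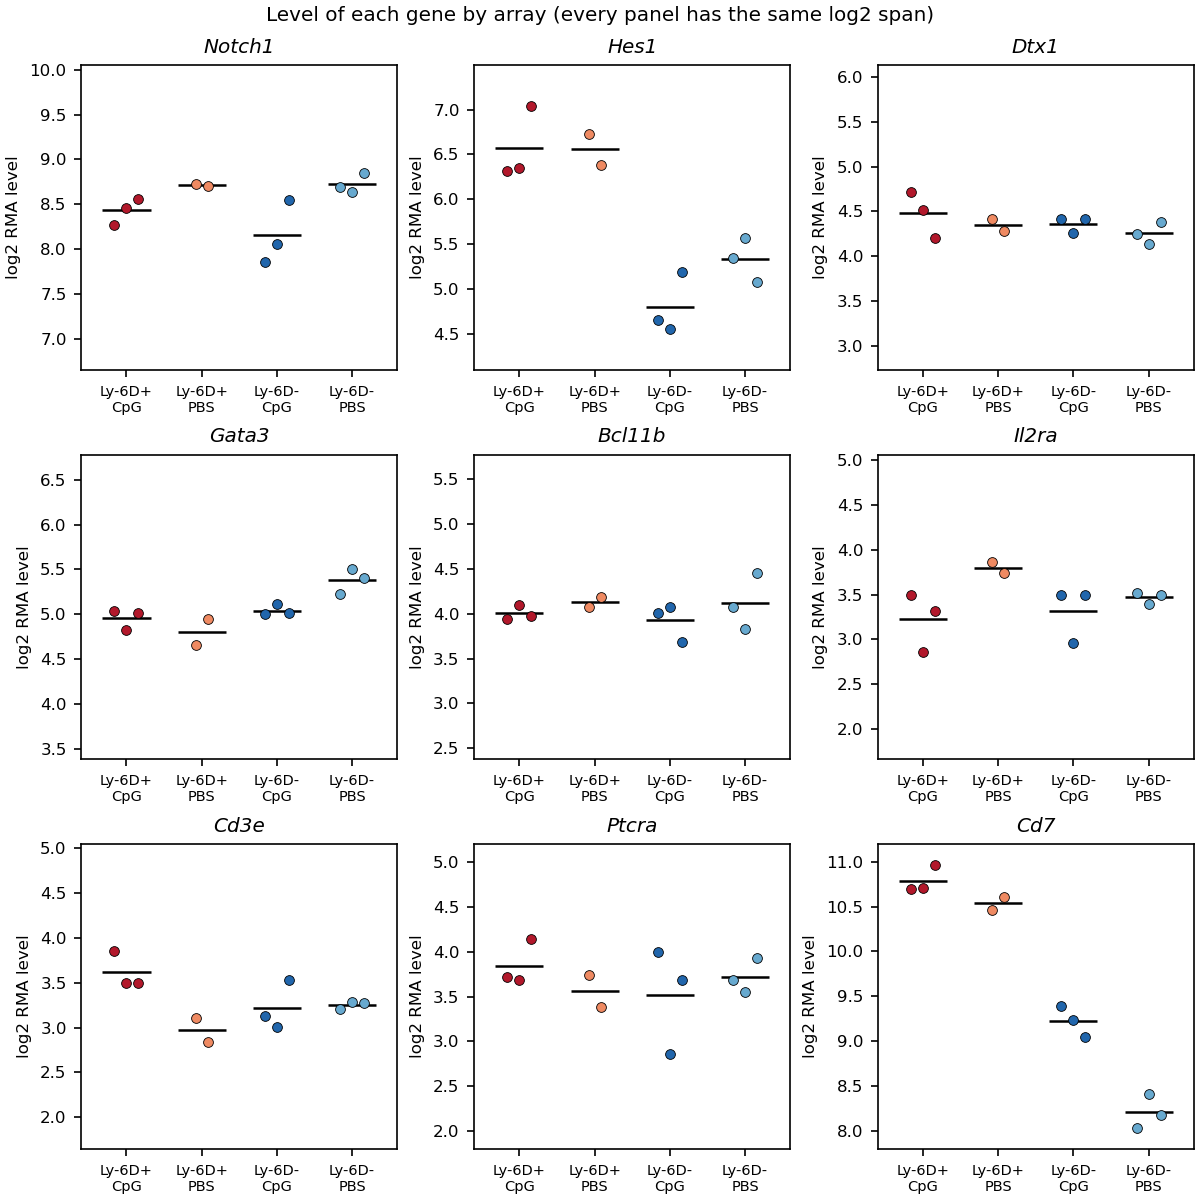
Log2 RMA level (vertical axis, with the same span in every panel) of the 9 measured genes in the 4 groups (horizontal axis). Each point is 1 array and each bar the group mean. Cd7 and Hes1 separate the Ly-6D+ from the Ly-6D- arrays, and in Cd7 the 3 Ly-6D- CpG arrays (9.04 to 9.39) stand above the 3 Ly-6D- PBS arrays (8.03 to 8.41).

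Between Ly-6D+ and Ly-6D- CLPs after PBS, 3 of the 9 genes passed, against 1.98% of all genes: Hes1 and Cd7 were higher in Ly-6D+ CLPs and Gata3 was lower. No fit with 1 array left out kept all 3. Cd7 and 1 further gene passed without Ly-6D+ CpG array 1 or 3, Ly-6D- CpG array 3 or Ly-6D- PBS array 1, and Cd7 alone passed without any 1 of the 7 others. The arrays of the 2 populations did not overlap for 5 of the 9 genes, against 26.9% of all genes. These were Hes1, Il2ra and Cd7, higher in Ly-6D+ CLPs, and Gata3 and Cd3e, lower in Ly-6D+ CLPs. After CpG, 2 of the 9 genes passed, Hes1 and Cd7, both higher in Ly-6D+ CLPs, against 2.14% of all genes. Arrays did not overlap for the same 2 genes, against 16.9% of all genes. The median log2 difference over the 9 genes was 0.01 after PBS and 0.28 after CpG, against -0.0091 and -0.0041 over all genes. In bulk samples, fewer cells of a type and less RNA per cell cannot be told apart, and this holds for each difference below.

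For CpG against PBS, the single gene of the 9 that passed was Cd7 in Ly-6D- CLPs, where 0.546% of all genes passed. In Ly-6D+ CLPs 0 of the 9 genes passed with limma, and 0.0271% of all genes did. At an unadjusted p below 0.05 there were 2 of the 9 in Ly-6D+ CLPs (Cd3e and Il2ra), against 6.51% of all genes, and 4 of the 9 in Ly-6D- CLPs (Notch1, Hes1, Gata3 and Cd7), against 12%. Arrays did not overlap between treatments for 4 of the 9 genes in Ly-6D+ CLPs, against 20.4% of all genes, and for 3 of the 9 in Ly-6D- CLPs, against 15.7%. The 4 were Cd3e and Cd7, higher after CpG, and Notch1 and Il2ra, lower after CpG. The 3 were Cd7, higher after CpG, and Notch1 and Gata3, lower after CpG. Averaged over both populations, 1 of the 9 genes passed, again Cd7, against 0.482% of all genes, and 4 had an unadjusted p below 0.05 (Notch1, Il2ra, Cd3e and Cd7), against 11.3%. For the difference between the CpG effects of the populations, 0 of the 9 genes passed with limma, and 0% of all genes did. At an unadjusted p below 0.05 there were 3 of the 9, Gata3, Cd3e and Cd7, against 6.37% of all genes. Comparisons that share a group share its arrays, so their values are set side by side.

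**Figure D2:**
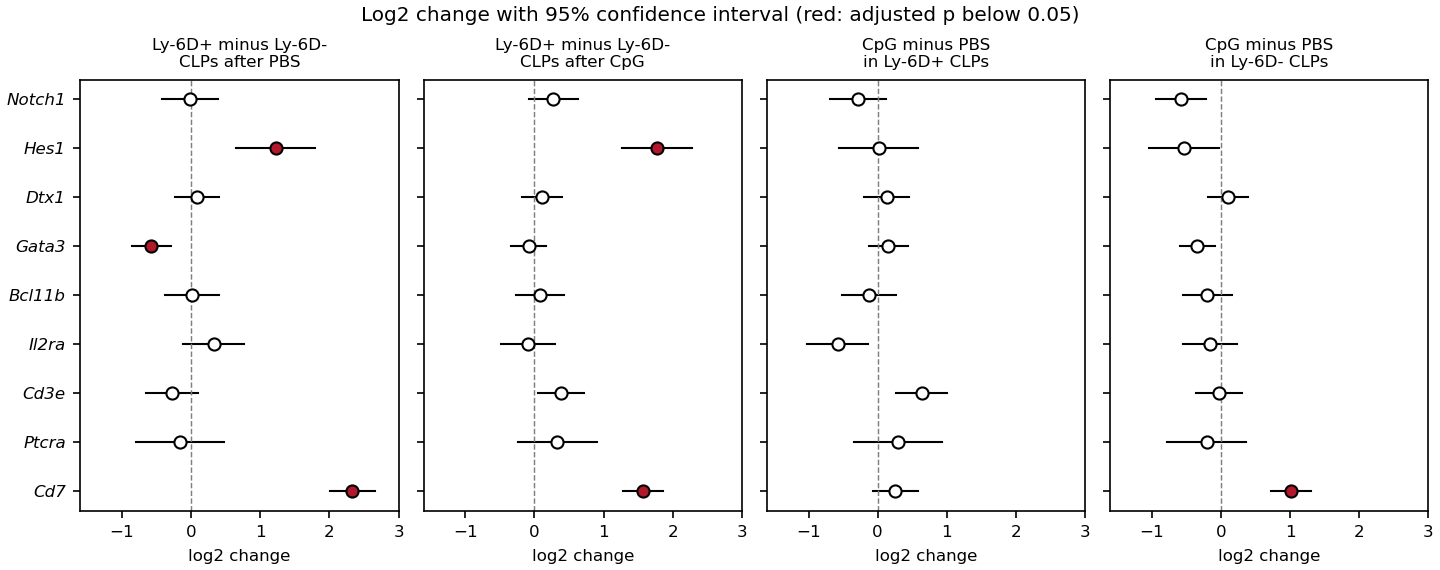
Log2 change (horizontal axis) of each of the 9 genes (rows) with its 95% confidence interval from limma, between the populations (Ly-6D+ minus Ly-6D-) for each treatment and for CpG minus PBS in each population. Red marks genes past the adjusted p of 0.05: Hes1, Gata3 and Cd7 between populations after PBS, Hes1 and Cd7 after CpG, and Cd7 for CpG in Ly-6D- CLPs.

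Notch1 encodes the Notch receptor that starts T-cell development. Its level was 8.27, 8.46 and 8.56 in Ly-6D+ CLPs after CpG, and 8.73 and 8.70 in Ly-6D+ CLPs after PBS. In Ly-6D- CLPs Notch1 was 7.85, 8.06 and 8.55 after CpG, and 8.69, 8.64 and 8.85 after PBS. In both populations every CpG array was below every PBS array, and the 3 Ly-6D- CpG arrays were the most scattered, with a SD of 0.36. The CpG minus PBS difference was -0.28 (SE 0.18, limma adjusted p = 0.88) in Ly-6D+ CLPs and -0.57 (SE 0.16, adjusted p = 0.171, unadjusted p = 0.00523) in Ly-6D- CLPs. Averaged over the populations it was -0.43 (SE 0.12, adjusted p = 0.198). None of the 3 passed. Without Ly-6D- CpG array 3, the highest of its group, the values were -0.77 in Ly-6D- CLPs (adjusted p = 0.0201) and -0.53 for the average (adjusted p = 0.0273), and both then passed. Between populations Notch1 did not pass: the difference was -0.01 after PBS (95% interval -0.42 to 0.39) and 0.28 after CpG (95% interval -0.09 to 0.64).

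The other Notch receptors, Notch2, Notch3 and Notch4, and the ligands of the Delta and Jagged families make up 8 further genes. In all 6 comparisons 0 of these passed. Over all genes 0% to 2.14% passed, depending on the comparison, so a count of 0 in a short list was near that share. A list of genes that cut, modify, assist or restrain Notch includes the protease genes Adam10 and Adam17, the sugar transferase genes of the Fringe family and Rbpj. Of its 19 genes 18 were measured, and 0 passed in any comparison. The smallest p among these 18 for CpG in Ly-6D- CLPs belonged to Maml3, a Mastermind coactivator gene. Maml3 was 7.18 to 7.34 in Ly-6D- CLPs after CpG and 7.55 to 7.96 in Ly-6D- CLPs after PBS, without overlap. Its difference was -0.50 (SE 0.11, limma adjusted p = 0.0766). The median CpG minus PBS difference over the 18 in Ly-6D- CLPs was 0.0060, against -0.0006 over all genes.

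Hes1 encodes a transcriptional repressor and is the classic target of Notch signalling. It was 6.32, 6.35 and 7.04 in Ly-6D+ CLPs after CpG, and 4.65, 4.55 and 5.19 in Ly-6D- CLPs after CpG. After PBS it was 6.73 and 6.38 in Ly-6D+ CLPs, and 5.34, 5.57 and 5.08 in Ly-6D- CLPs. Every Ly-6D+ array was above every Ly-6D- array. The Ly-6D+ minus Ly-6D- difference was 1.77 after CpG (SE 0.23, 3.42-fold, limma adjusted p = 0.00222), and Hes1 passed under all 19 alternatives tried there. After PBS it was 1.22 (SE 0.26, 2.34-fold, adjusted p = 0.0401), and the call held under 10 of 19 alternatives. It was lost when only the PBS arrays were fitted (adjusted p = 0.0731). It was also lost without Ly-6D+ PBS array 1 (0.272) or 2 (0.105), without Ly-6D- PBS array 1 (0.0988), 2 (0.0593) or 3 (0.125), and without Ly-6D+ CpG array 2 (0.0515) or Ly-6D- CpG array 1 (0.0589) or 2 (0.0525).

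CpG left Hes1 with overlapping arrays in each population. The CpG minus PBS difference was 0.02 (SE 0.26, limma adjusted p = 1) in Ly-6D+ CLPs, with a 95% interval of -0.55 to 0.59. In Ly-6D- CLPs it was -0.53 (SE 0.23, adjusted p = 0.39). Group means were 6.57 ± 0.40 (SD, n = 3) in Ly-6D+ CLPs after CpG, 6.56 ± 0.25 (n = 2) in Ly-6D+ CLPs after PBS, 4.80 ± 0.35 (n = 3) in Ly-6D- CLPs after CpG and 5.33 ± 0.25 (n = 3) in Ly-6D- CLPs after PBS. In order of level, both Ly-6D+ groups came ahead of the Ly-6D- PBS group and then the Ly-6D- CpG group. Of the neighbours in this order, only the Ly-6D+ PBS and Ly-6D- PBS groups passed the test.

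Dtx1, which encodes the E3 ubiquitin ligase Deltex and is also a Notch target, was 4.20 to 4.72 in Ly-6D+ CLPs after CpG and 4.28 to 4.41 in Ly-6D+ CLPs after PBS. In Ly-6D- CLPs it was 4.26 to 4.42 after CpG and 4.14 to 4.38 after PBS. The groups overlapped in every comparison, and the largest of the 4 differences between groups was 0.13 (SE 0.15, limma adjusted p = 0.962), for CpG in Ly-6D+ CLPs. A further probe set of Dtx1 also did not pass, with a difference of 0.29 (SE 0.23) there. The 7 other Notch targets listed, Hes5, Hey1, Hey2, Heyl, Nrarp, Myc and Notch3, gave 0 past the test in every comparison. Of all genes, 0% to 2.14% passed, depending on the comparison. Nrarp, which encodes an inhibitor of Notch signalling, was 4.59 to 5.05 in Ly-6D+ CLPs after CpG and 5.27 to 5.61 in Ly-6D+ CLPs after PBS, a difference of -0.60 (SE 0.19, adjusted p = 0.561). Hes1 was thus the single gene of the 9 on this list of Notch targets that passed a test. The list is not complete: Ptcra, named above as a Notch target, is not on it.

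Gata3 encodes a zinc-finger transcription factor needed from the earliest T-cell stages. After PBS it was 4.66 and 4.95 in Ly-6D+ CLPs, and 5.23, 5.50 and 5.41 in Ly-6D- CLPs. After CpG it was 5.04, 4.82 and 5.01 in Ly-6D+ CLPs, and 5.00, 5.11 and 5.01 in Ly-6D- CLPs. The 3 Ly-6D- PBS arrays were the highest of all 11, and the 8 other arrays lay between 4.66 and 5.11. The Ly-6D+ minus Ly-6D- difference was -0.58 after PBS (SE 0.13, limma adjusted p = 0.0475) and -0.08 after CpG (SE 0.11, adjusted p = 0.837). CpG minus PBS was -0.34 in Ly-6D- CLPs (SE 0.11, adjusted p = 0.243) and 0.15 in Ly-6D+ CLPs (SE 0.13, adjusted p = 0.931). The difference between these CpG effects was 0.50 (SE 0.17, adjusted p = 0.682) and did not pass.

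The Gata3 call after PBS held under 3 of 19 alternatives. It was kept when dim genes were left out (adjusted p = 0.0293), with array weights (0.045) and without Ly-6D- PBS array 1 (0.0499). Without Ly-6D+ PBS array 1, the lowest of all 11, the difference was -0.43 (adjusted p = 0.316). Without Ly-6D+ PBS array 2 the adjusted p was 0.0686, and without Ly-6D- PBS array 2 or 3 it was 0.141 or 0.125. Leaving out any 1 CpG array gave 0.0538 to 0.0708. A further Gata3 probe set was 5.00 and 4.85 in Ly-6D+ CLPs after PBS and 5.00, 5.15 and 5.11 in Ly-6D- CLPs after PBS, where the array values touch. Its difference was -0.16 (SE 0.10, adjusted p = 0.622 over 23521 probe sets). With the mean of both probe sets the difference was -0.37 (adjusted p = 0.108).

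**Figure D3:**
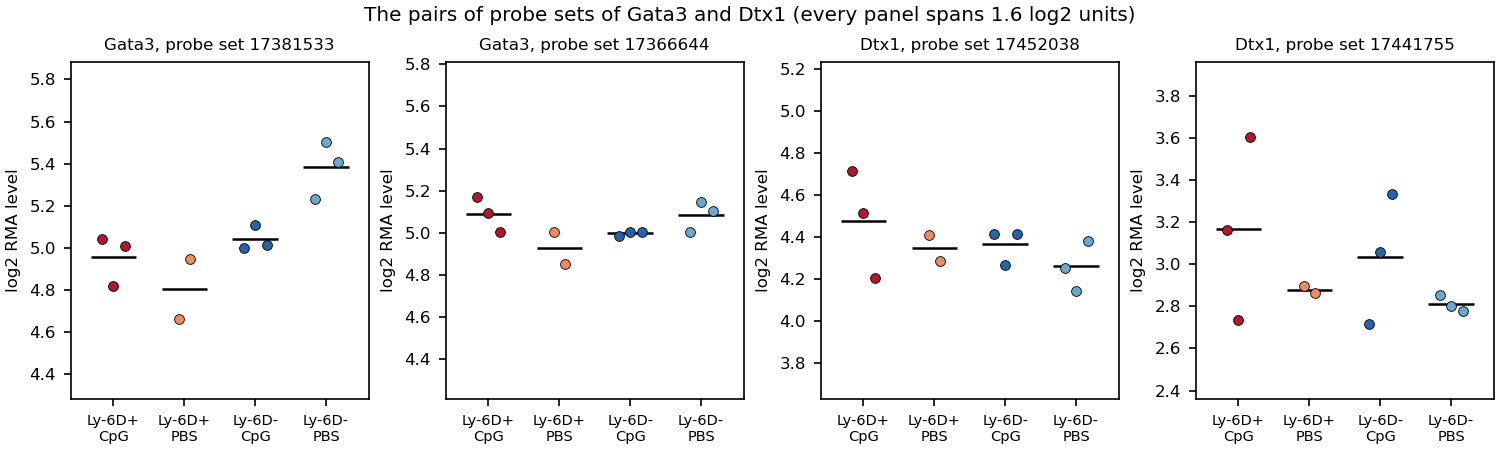
Log2 RMA level (vertical axis, 1.6 log2 units in every panel) in the 4 groups (horizontal axis) for both probe sets of Gata3 and both of Dtx1. Points are arrays and bars group means. The 3 Ly-6D- PBS arrays are the highest of the 11 for the Gata3 probe set with the higher mean (5.23 to 5.50) and overlap the other groups for the further one (5.00 to 5.15).

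Bcl11b encodes the factor that commits thymocytes to the T lineage. Its level was 3.94 to 4.10 in Ly-6D+ CLPs after CpG, 4.08 to 4.19 in Ly-6D+ CLPs after PBS, 3.69 to 4.08 in Ly-6D- CLPs after CpG and 3.83 to 4.46 in Ly-6D- CLPs after PBS. The groups overlapped in all 4 comparisons, and the differences ran between -0.20 (SE 0.16, limma adjusted p = 0.7) for CpG in Ly-6D- CLPs and 0.08 (SE 0.16) for the populations after CpG.

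Among the transcription factors of the T lineage, 11 of 12 were measured, Gata3 and Bcl11b included. After PBS, 1 was higher and 2 were lower in Ly-6D+ CLPs, where 1.98% of all genes passed. Lef1, a DNA-binding partner of beta-catenin and a close relative of Tcf7, was 7.04 and 7.12 in Ly-6D+ CLPs, against 4.53 to 5.08 in Ly-6D- CLPs. Its difference was 2.36 (SE 0.30, 5.14-fold, limma adjusted p = 0.00234) and passed under all 19 alternatives. Tox, a nuclear factor needed for CD4 T cells and innate lymphoid cells, was 6.60 and 6.79 in Ly-6D+ CLPs, against 7.53 to 7.64 in Ly-6D- CLPs. The difference in Tox was -0.88 (SE 0.17, adjusted p = 0.0223), but without any 1 of the 5 PBS arrays the adjusted p was 0.0614 to 0.183.

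After CpG, 2 of the 11 factors were higher in Ly-6D+ CLPs, where 2.14% of all genes passed. Lef1 was 5.96 to 6.33 in Ly-6D+ CLPs and 3.89 to 5.11 in Ly-6D- CLPs, a difference of 1.63 (SE 0.27, limma adjusted p = 0.00969), which was lost only when the CpG arrays were fitted alone (0.0636). Ets1 was 7.86 to 8.06 in Ly-6D+ CLPs and 6.83 to 7.57 in Ly-6D- CLPs, a difference of 0.74 (SE 0.16, adjusted p = 0.0475). Without any 1 array other than Ly-6D- CpG array 3, the adjusted p of Ets1 was 0.0657 to 0.15, and it was 0.0569 after a further quantile normalisation and 0.174 with the CpG arrays fitted alone. Ets1 passed under 6 of 19 alternatives. For CpG against PBS in Ly-6D- CLPs, 0 of the 11 passed with limma, and 0.546% of all genes did. The difference was negative for 10 of the 11, with a median of -0.18, against -0.0006 over all genes.

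Cd7 encodes a membrane protein of the immunoglobulin superfamily that in human blood formation is among the earliest markers of T and NK progenitors. It was 10.70, 10.71 and 10.96 in Ly-6D+ CLPs after CpG, and 10.46 and 10.61 in Ly-6D+ CLPs after PBS. The Ly-6D- CLPs had Cd7 levels of 9.39, 9.23 and 9.04 after CpG, and 8.03, 8.41 and 8.17 after PBS. All 4 groups were thus free of overlap, in the order Ly-6D+ CpG, Ly-6D+ PBS, Ly-6D- CpG, Ly-6D- PBS. The group means were 10.79 ± 0.14 (SD, n = 3), 10.53 ± 0.11 (n = 2), 9.22 ± 0.17 (n = 3) and 8.21 ± 0.19 (n = 3) in that order.

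The Ly-6D+ minus Ly-6D- difference in Cd7 was 2.33 after PBS (SE 0.15, 5.02-fold, limma adjusted p = 1.72e-05) and 1.57 after CpG (SE 0.13, 2.97-fold, adjusted p = 0.000164). Both passed under all 19 alternatives. In Ly-6D- CLPs, Cd7 was 1.01 higher after CpG than after PBS (SE 0.13, 2.02-fold, 95% interval 0.72 to 1.30, adjusted p = 0.0154). This call held under 14 of 19 alternatives, with values between 0.93 and 1.11. It was lost when the fit held no Ly-6D+ arrays (adjusted p = 0.101), without Ly-6D- CpG array 1 (0.0956) or 2 (0.0763), and without Ly-6D- PBS array 1 (0.0507) or 3 (0.0694).

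In Ly-6D+ CLPs the CpG minus PBS difference in Cd7 was 0.26 (SE 0.15, limma adjusted p = 0.854), with a 95% interval of -0.07 to 0.58, so the top neighbours of the order did not pass. The CpG effect in Ly-6D+ minus that in Ly-6D- CLPs was -0.76 (SE 0.20, unadjusted p = 0.00305, adjusted p = 0.622), and this difference did not pass. The average over both populations was 0.63 (SE 0.10, 1.55-fold, adjusted p = 0.0302) and held under 10 of 18 alternatives. It was lost without Ly-6D+ CpG array 1 (0.0744) or 2 (0.0653), Ly-6D+ PBS array 1 (0.129) or 2 (0.0896), Ly-6D- CpG array 1 (0.0791) or 2 (0.0773), and Ly-6D- PBS array 1 (0.0707) or 3 (0.0723).

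Marker levels of other cell types in the same Ly-6D- arrays are given beside the Cd7 difference, and their part in it was not tested. Of all genes, 0.546% passed in this comparison. Il7r was lower after CpG without overlap, at -0.81 (SE 0.13, limma adjusted p = 0.03). It did not pass with the Ly-6D- arrays fitted alone (0.133), without any 1 Ly-6D- array other than CpG array 3 (0.0798 to 0.132), or without Ly-6D+ CpG array 1 (0.0551) or 1 of the Ly-6D+ PBS arrays (0.053 each). Flt3, at 10.36 to 10.72 after CpG and 10.82 to 10.87 after PBS, also did not overlap, and its difference was -0.31 (SE 0.10, adjusted p = 0.248). The mean level of the 10 measured B-lineage genes was 5.51 to 5.85 in Ly-6D- CLPs after CpG and 6.16 to 6.21 in Ly-6D- CLPs after PBS. Of these 10, 9 had a negative CpG difference and 1 passed, Rag2, a recombinase gene, at -0.75 (SE 0.11, limma adjusted p = 0.0221). Without any 1 Ly-6D- array other than CpG array 3, the adjusted p of Rag2 was 0.0545 to 0.117. Markers of plasmacytoid dendritic cells gave 0 of 8 past, with a mean level of 8.22 to 8.37 after CpG and 8.17 to 8.31 after PBS. NK and innate lymphoid markers gave 0 of 13 past, with 4.95 to 5.10 after CpG and 4.84 to 4.94 after PBS. Their differences were positive for 9 and negative for 4. Without overlap, Klrk1 was 5.84 to 7.08 after CpG and 4.75 to 5.72 after PBS, and Id2 7.59 to 8.41 and 7.19 to 7.35. Nkg7 was lower after CpG, at 10.45 to 10.60 against 10.86 to 10.90. Granulocyte and monocyte markers gave 1 of 10 past, with a mean level of 8.91 to 9.32 after CpG and 8.80 to 9.0 after PBS. It was Ly6c2, a monocyte and lymphoid surface gene, higher by 1.09 after CpG (SE 0.17, adjusted p = 0.03). Without any 1 Ly-6D- array other than CpG array 3, its adjusted p was 0.0882 to 0.133, and without Ly-6D+ CpG array 1 or 1 of the Ly-6D+ PBS arrays it was 0.053 to 0.0551. Of 5 erythroid markers 2 were measured, and 0 passed.

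Il2ra encodes the alpha chain of the interleukin-2 receptor (CD25), which appears when thymic progenitors enter the T lineage. It was 3.49, 2.86 and 3.32 in Ly-6D+ CLPs after CpG, and 3.86 and 3.74 in Ly-6D+ CLPs after PBS. Ly-6D- CLPs gave 3.49, 2.96 and 3.49 after CpG, and 3.52, 3.40 and 3.49 after PBS. The 2 Ly-6D+ PBS arrays were the highest of all. The probe set was dim, at 2.86 to 3.86 against array medians of 3.85 to 3.96, so expression of Il2ra is not established. The CpG minus PBS difference in Ly-6D+ CLPs was -0.57 (SE 0.20, unadjusted p = 0.0154, limma adjusted p = 0.608) and did not pass. For Ly-6D- CLPs the difference was -0.16 (SE 0.18, adjusted p = 0.803).

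Cd3e encodes a signalling chain of the T-cell receptor complex. It was 3.85, 3.50 and 3.50 in Ly-6D+ CLPs after CpG, and 3.11 and 2.84 in Ly-6D+ CLPs after PBS. Levels in Ly-6D- CLPs were 3.13, 3.01 and 3.53 after CpG, and 3.21, 3.28 and 3.27 after PBS. The 2 Ly-6D+ groups stood apart without overlap, and the Ly-6D- groups overlapped. This probe set was dim too, at 2.84 to 3.85 against array medians of 3.85 to 3.96, so expression of Cd3e is not established. The CpG minus PBS difference in Ly-6D+ CLPs was 0.64 (SE 0.17, unadjusted p = 0.00313, limma adjusted p = 0.393) and did not pass. In Ly-6D- CLPs it was -0.03 (SE 0.15, adjusted p = 0.97).

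Ptcra, with its Rbpj core matches shown above, was 3.72, 3.68 and 4.14 in Ly-6D+ CLPs after CpG, and 3.74 and 3.38 in Ly-6D+ CLPs after PBS. In Ly-6D- CLPs it was 4.0, 2.86 and 3.68 after CpG, and 3.68, 3.55 and 3.93 after PBS. The groups overlapped in every comparison, and the 3 Ly-6D- CpG arrays had the widest spread, with a SD of 0.59. CpG minus PBS was 0.29 in Ly-6D+ CLPs (SE 0.29, limma adjusted p = 0.956) and -0.21 in Ly-6D- CLPs (SE 0.26, adjusted p = 0.826).

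Of 17 genes of the T-cell receptor complex and its signalling, 14 were measured. After PBS 1 was higher in Ly-6D+ CLPs, where 1.98% of all genes passed. Thy1, which encodes a surface glycoprotein of mouse T cells and their progenitors, was 7.32 and 7.56 in Ly-6D+ CLPs, against 5.73 to 6.30 in Ly-6D- CLPs. The difference in Thy1 was 1.33 (SE 0.17, 2.52-fold, limma adjusted p = 0.0025), and it was lost only when the PBS arrays were fitted alone (0.0783). After CpG 3 were higher in Ly-6D+ CLPs, Cd6, Cd28 and Thy1, where 2.14% of all genes passed. Cd6, which encodes a T-cell surface receptor, was 6.83 to 6.93 in Ly-6D+ CLPs and 5.64 to 5.93 in Ly-6D- CLPs, a difference of 1.06 (SE 0.11, adjusted p = 0.000652) that held under all 19 alternatives. Cd28, which encodes a co-stimulatory receptor, was 6.91 to 7.81 in Ly-6D+ CLPs and 6.20 to 6.42 in Ly-6D- CLPs, a difference of 1.15 (SE 0.20, adjusted p = 0.0144). The Cd28 call was lost when the CpG arrays were fitted alone (0.0856) and without Ly-6D+ CpG array 1 (0.0668) or Ly-6D- CpG array 1 (0.0608). The Thy1 difference after CpG was 0.74 (SE 0.15, adjusted p = 0.0357), and without any 1 Ly-6D+ array or any 1 Ly-6D- CpG array its adjusted p was 0.0511 to 0.127. The median difference over the 14 was 0.08 after PBS and 0.40 after CpG.

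For CpG against PBS in Ly-6D- CLPs, 1 of these 14 genes passed, against 0.546% of all genes. It was again Cd6, which was lower, at 5.64 to 5.93 after CpG and 6.36 to 6.68 after PBS. The difference in Cd6 was -0.66 (SE 0.11, limma adjusted p = 0.0392). Without any 1 array other than Ly-6D- CpG array 3, its adjusted p was 0.0542 to 0.147. Lat, which encodes a membrane adaptor of T-cell receptor signalling, was 7.83 to 8.47 after CpG and 8.80 to 8.99 after PBS, a difference of -0.78 (SE 0.15, adjusted p = 0.0538) that did not pass. In Ly-6D+ CLPs 0 of the 14 passed for CpG, against 0.0271% of all genes.

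Of 5 genes for homing to the thymus, 0 passed between populations after PBS and 1 after CpG, against 1.98% and 2.14% of all genes. This was Ccr9, which encodes the receptor of the thymic chemokine CCL25 and is also a marker of plasmacytoid dendritic cells. Ccr9 was 5.96 to 6.26 in Ly-6D+ CLPs and 4.12 to 4.93 in Ly-6D- CLPs after CpG, a difference of 1.57 (SE 0.18, limma adjusted p = 0.000885) that held under all 19 alternatives. After PBS the difference was 0.58 (SE 0.20, adjusted p = 0.223). In Ly-6D- CLPs Ccr9 was 4.12 to 4.93 after CpG and 5.15 to 5.31 after PBS, a difference of -0.70 (SE 0.18, adjusted p = 0.133) that did not pass.

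Between the populations, Il7r and markers of other lineages differed beside Hes1, Lef1 and Cd7, and their part in these differences was not tested. Il7r was higher in Ly-6D+ CLPs by 1.46 after CpG (SE 0.13, limma adjusted p = 0.000176), and by 0.68 after PBS (SE 0.14, adjusted p = 0.0365), where 11 of 19 alternatives kept the call. After PBS it did not pass without any 1 of the 5 PBS arrays (0.0917 to 0.176), or without Ly-6D+ CpG array 1 (0.0603) or Ly-6D- CpG array 1 (0.0537). Over all genes, 1.98% passed after PBS and 2.14% after CpG. Of 10 B-lineage genes, 8 were higher in Ly-6D+ CLPs after each treatment, with Cd79b past the test only after PBS and Rag2 only after CpG. The Cd79b call after PBS was lost without Ly-6D+ PBS array 1 (0.0515) and with the PBS arrays fitted alone (0.0982). All 10 differences were positive after each treatment, with a median difference of 3.11 after PBS and 2.68 after CpG. The mean level of the 10 was 8.14 to 8.40 in Ly-6D+ CLPs after CpG, 8.90 to 8.95 in Ly-6D+ CLPs after PBS, 5.51 to 5.85 in Ly-6D- CLPs after CpG and 6.16 to 6.21 in Ly-6D- CLPs after PBS. Ebf1, the factor that specifies the B lineage, was higher by 3.64 after PBS (SE 0.19, limma adjusted p = 9.24e-06). Of 8 markers of plasmacytoid dendritic cells, 6 (PBS) and 7 (CpG) were higher in Ly-6D+ CLPs. With the PBS arrays fitted alone, the calls after PBS were lost for Irf8 (limma adjusted p = 0.077) and Cox6a2 (0.1). Without Ly-6D+ PBS array 2 the Cox6a2 difference was 0.50, against 0.56 with all arrays. Of 13 NK and innate lymphoid markers, 1 was higher in Ly-6D+ CLPs after each treatment, Klrd1, which encodes the NK receptor CD94. The difference in Klrd1 was 1.72 after PBS (SE 0.31, adjusted p = 0.0205) and 1.53 after CpG (SE 0.28, adjusted p = 0.018). After PBS it did not pass without Ly-6D+ PBS array 1 (0.112) or 2 (0.136) or with the PBS arrays fitted alone (0.193). After CpG it did not pass without Ly-6D+ CpG array 1 (0.0769) or 2 (0.0665) or Ly-6D- CpG array 1 (0.0798) or 2 (0.0654). The mean level of the 13 was 4.99 to 5.30 in Ly-6D+ CLPs after CpG, 4.99 to 5.13 in Ly-6D+ CLPs after PBS, 4.95 to 5.10 in Ly-6D- CLPs after CpG and 4.84 to 4.94 in Ly-6D- CLPs after PBS. Of 10 granulocyte and monocyte markers, 0 passed after PBS, and Mpo and Csf1r were lower in Ly-6D+ CLPs after CpG, with differences of -1.78 (SE 0.18) for Mpo and -1.69 (SE 0.21) for Csf1r.

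**Figure D4:**
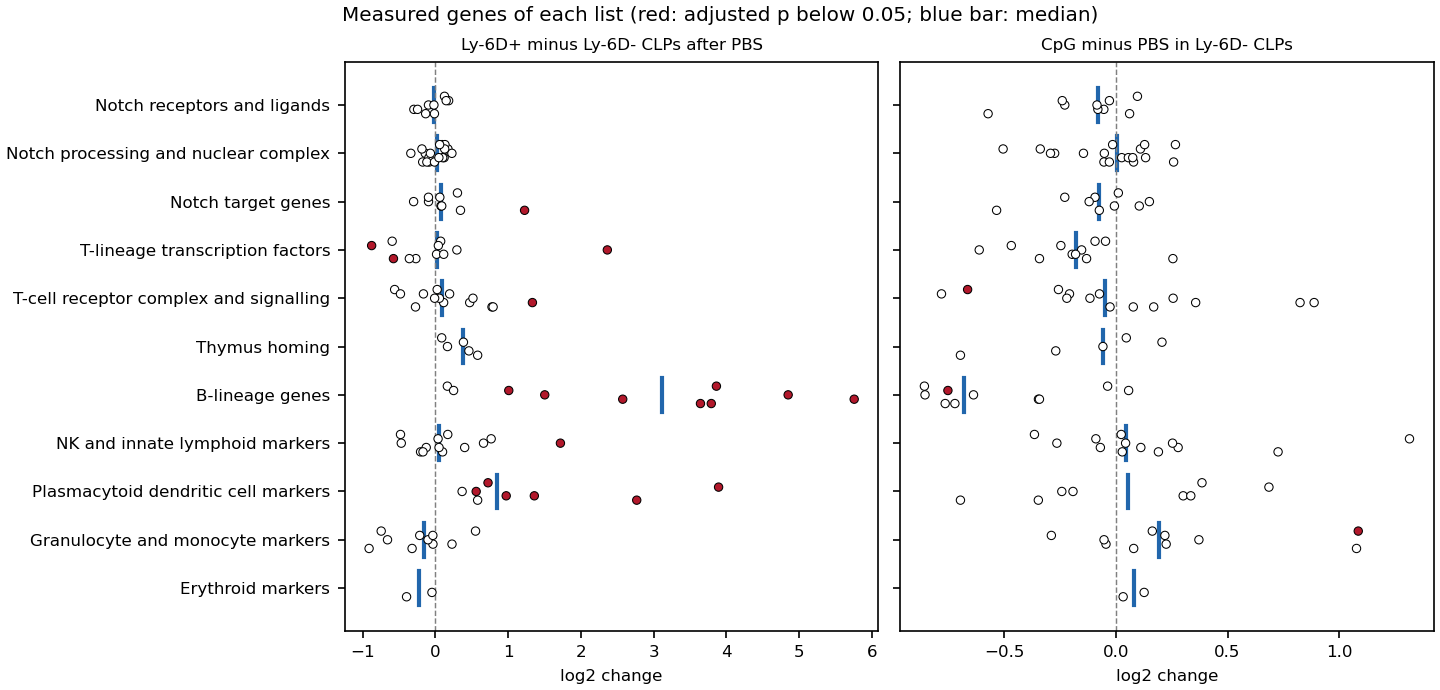
Log2 change (horizontal axis) of each measured gene of the 11 lists (rows), for Ly-6D+ minus Ly-6D- CLPs in PBS-treated mice (left) and for CpG minus PBS in Ly-6D- CLPs (right), on axes of different range. Points are genes, red points passed the adjusted p of 0.05, and the blue bar is the median of the list. The B-lineage list lies furthest to the right between populations (median 3.11) and below 0 for CpG (median -0.68). The Notch receptor, Notch processing, thymus homing and erythroid lists hold no red point.

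The genes whose levels ran most closely with each of the 6 members that spanned more than 0.5 were listed as a description over the 11 arrays, which share the 4 groups. They were picked for the highest r among 22180 genes, so a high r is built into the choice and was not tested. For Hes1 they were Sema7a (Pearson r = 0.979), Tspan2 (0.975) and St6gal1 (0.967). For Cd7 they were Ly6e (0.980), Gpr18 (0.979) and Tex2 (0.974). Tex2 averaged 9.21 in Ly-6D+ CLPs after CpG, 9.25 in Ly-6D+ CLPs after PBS, 8.31 in Ly-6D- CLPs after CpG and 7.73 in Ly-6D- CLPs after PBS. The closest to Gata3 were Trim13 (0.974), Etv3l (0.965) and Kcne2 (0.941), and to Notch1 Sim2 (0.949), Zfp579 (0.939) and Zfpm1 (0.922). Il2ra ran closest with Cox8c (0.922), Xlr (0.908) and Nrarp (0.891), and Cd3e with Akr1c18 (0.917), Ceacam11 (0.910) and H2-M2 (0.884). Several of these probe sets were dim, with group means below the array medians of 3.85 to 3.96. Group means were 2.35 to 2.63 for Cox8c, 2.88 to 3.40 for Xlr, 2.49 to 3.06 for Akr1c18 and 2.42 to 2.63 for H2-M2. Those of Nrarp (4.84 to 5.44) were higher. Among the members themselves, r was 0.768 between Hes1 and Cd7 and -0.770 between Gata3 and Cd7, over the same 11 arrays.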

How the data were processed

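RNA was amplified from 5 ng per array by NuGen SPIA, and 5 µg of biotin-labelled cDNA was hybridised, as the labels state. The deposited log2 values come from RMA, run by the authors in Partek, per the submitters' processing notes. Software versions and settings: not given in the sources used here. Of 41345 probe sets, 23521 had exactly 1 symbol in the supplied probe table, 1814 had several and 16010 had none. Each of 22180 genes was read from its probe set with the highest mean, a choice to make for 1082 genes.

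A mean for each group was fitted on all 11 arrays with default lmFit and eBayes settings (limma 3.58.1, R 4.3.3), which left 7 residual and 3.48 prior degrees of freedom. SE is the moderated standard error, and intervals are 95%. Tables and figures used Python 3.11.15, pandas 2.3.3 and matplotlib 3.10.9. The code of the fit was also run on simulated arrays whose noise was independent between arrays. No result given here rests on that run. Members and lists were chosen with earlier results of these data known. List genes were named where they passed, or otherwise by smallest p, and like genes by Pearson r, passing over predicted and numbered symbols. The alternatives averaged the probe sets of a gene, dropped the dimmest 33.3% of genes, used a variance trend with robust eBayes, used array weights, fitted only the groups compared, applied a further quantile normalisation, centred each array, took the replicate number as a block, or dropped 1 array at a time. A group left with 1 array was assumed to vary like the others. Whether both populations came from the same animals is not stated in the labels.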

Additional observations from a re-analysis of the deposited data

How the results depend on the processing

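Over the 9 genes and 6 comparisons, 933 of 1008 values kept their direction and their side of the threshold, 38 lost the threshold, 2 gained it and 35 turned direction, none of the 35 past the test. Most of the 1008 belong to results that had not passed and had no call to lose. Calls were lost under 16 of 19 alternatives for Gata3 after PBS and 9 of 19 for Hes1 after PBS. Cd7 lost 5 of 19 for CpG in Ly-6D- CLPs, 8 of 18 for the average and 0 of 19 between populations, as did Hes1 after CpG. Fitting only the groups compared gave 1 gene past the test between populations after PBS, Cd7, against 3 with all arrays, and 0 for CpG in Ly-6D- CLPs, against 1; such fits hold fewer arrays. With the replicate block, 2 genes passed after PBS, Hes1 and Cd7, and Gata3 did not (limma adjusted p = 0.0933). The block changed no other count: 2 between populations after CpG, 0 for the CpG effect in Ly-6D+ CLPs, 1 for that in Ly-6D- CLPs, 1 on average and 0 for the difference. Among other genes named, the block lost Ets1 between populations after CpG (adjusted p = 0.0627), Il7r between populations after PBS (0.0739) and Rag2 for the average (0.0601). Arrays sharing a number across groups had correlations of -0.034 to 0.176 over 15 pairs, against -0.127 to 0.091 over 30 others. Of the 11 arrays, 8 correlated best with an array of their own number in another group. The main fit took no pairing because the labels state none, so any effect shared by arrays of the same number was not modelled there. Leaving out 1 array gave 1 to 2 genes past the test after PBS, 2 to 2 after CpG, 0 to 0 for the CpG effect in Ly-6D+ CLPs, 0 to 2 for that in Ly-6D- CLPs, 0 to 2 on average and 0 to 0 for the difference.

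Values that turned direction had not passed. Notch1 between populations after PBS was 0.0221 with arrays centred and 0.0944 with the replicate block. Gata3 after CpG was 0.0047 with the mean of its probe sets. Hes1 for CpG in Ly-6D+ CLPs was -0.0636 with array weights and -0.0851 with the block. Cd3e for CpG in Ly-6D- CLPs was 0.0013 with arrays centred, and Ptcra for the average was -0.0153 with the block. The difference between CpG effects was -0.0144 for Dtx1 with quantile normalisation, -0.0128 with centring and -0.0072 for Bcl11b with array weights. The cause was not tested. With 1 array left out, the ranges that crossed 0 after PBS were -0.0588 to 0.0481 for Notch1, -0.13 to 0.18 for Bcl11b and -0.34 to 0.0128 for Ptcra. After CpG they were -0.0066 to 0.25 for Dtx1, -0.0398 to 0.16 for Bcl11b and -0.26 to 0.0931 for Il2ra. The CpG effect on Hes1 in Ly-6D+ CLPs ran between -0.22 and 0.19. In Ly-6D- CLPs the ranges were -0.25 to 0.0179 for Il2ra, -0.18 to 0.0813 for Cd3e and -0.45 to 0.12 for Ptcra. For the average Ptcra ran between -0.0805 and 0.20, and for the difference Dtx1 between -0.0925 and 0.16 and Bcl11b between -0.10 and 0.21.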

Other observations

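Averaged over both populations, 3 of the 10 measured B-lineage genes passed as lower after CpG, against 0.482% of all genes, beside the higher Cd7. Vpreb3, which encodes a chaperone of the pre-B-cell receptor, fell by 1.06 (SE 0.14, limma adjusted p = 0.0152). It was 7.97 to 8.11 in Ly-6D+ CLPs after CpG and 9.30 to 9.50 in Ly-6D+ CLPs after PBS, and 4.53 to 5.36 in Ly-6D- CLPs after CpG and 5.47 to 5.75 in Ly-6D- CLPs after PBS. Pou2af1, which encodes a B-cell coactivator of octamer factors, fell by 1.37 (SE 0.22, adjusted p = 0.0309), and Rag2 fell by 0.45 (SE 0.08, adjusted p = 0.0469). Without Ly-6D+ PBS array 1 or 2 the adjusted p of Vpreb3 was 0.0602 or 0.0859, and that of Pou2af1 was 0.117 each. Pou2af1 also did not pass without Ly-6D+ CpG array 2 (0.077) or 3 (0.0625), Ly-6D- CpG array 1 (0.091), or Ly-6D- PBS array 1 (0.0758), 2 (0.0776) or 3 (0.0742). Rag2 did not pass without any 1 array other than Ly-6D- CpG array 3 (0.0697 to 0.149), nor with arrays centred on their medians (0.0655).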
